A study of Mus musculus with 6 samples.

Results

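The genes of the vasoactive intestinal peptide (VIP) and pituitary adenylate cyclase-activating polypeptide (PACAP) system were described in RNA sequencing libraries of mouse cerebral cortex. The 5 genes were a fixed list, matched by symbol among the 53379 gene identifiers of the files: the receptor genes Vipr1, Vipr2 and Adcyap1r1 and the peptide genes Vip and Adcyap1. They were selected on measured values: the group levels and fold change of Vipr1 between the genotypes in these same libraries were known when the list was made, so the differences of these 5 genes are given as a description, with no p-value, and counts of calls among them support nothing. The study compared 3 libraries from wild type mice (replicates 1, 3 and 4) with 3 libraries from mice labelled GTF2ird1-/- (replicates 5, 6 and 7). Gtf2ird1 encodes a transcription factor of the Williams syndrome region, and the label reads as loss of both its copies. All 6 libraries were labelled as cerebral cortex of C57BL/6 mice aged 2 months. The series title names Gad2+ neurons as the material, and neither the isolation of the cells nor the mutated part of Gtf2ird1 is stated in the sources used here. Separate animals are not named for the libraries, so the spread between them may be technical.

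VIP and PACAP are related neuropeptides. Vipr1 and Vipr2 encode VPAC1 and VPAC2, which bind both peptides, and Adcyap1r1 encodes PAC1, which prefers PACAP. All these receptors belong to class B of the G protein-coupled receptors and act mainly through Gs, adenylyl cyclase, cyclic AMP, protein kinase A and the transcription factor CREB. In the cortex Vip marks a class of GABAergic interneurons, PAC1 is found in neurons and astrocytes, and VPAC1 is also known from immune cells.

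The promoters of the peptide genes and of Vipr1 are shown because the former are the known route by which cyclic AMP acts on this system, and the latter belongs to the receptor gene with the lower level in the knockout-labelled libraries. The 120 bases before each annotated start come from RefSeq (GRCm38.p6, plus strand), at chr9:121642596-121642715 for Vipr1, chr10:5639098-5639217 for Vip and chr17:93198897-93199016 for Adcyap1. Capitals mark TGACGTC, the first letters of the cyclic AMP response element TGACGTCA, in Vip and Adcyap1, and the core TGACG on the opposite strand in Vipr1.
Vipr1: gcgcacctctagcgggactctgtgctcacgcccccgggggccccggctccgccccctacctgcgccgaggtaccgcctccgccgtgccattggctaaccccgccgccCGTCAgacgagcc
Vip: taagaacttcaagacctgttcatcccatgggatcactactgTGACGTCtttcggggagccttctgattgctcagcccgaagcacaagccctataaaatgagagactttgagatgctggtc
Adcyap1: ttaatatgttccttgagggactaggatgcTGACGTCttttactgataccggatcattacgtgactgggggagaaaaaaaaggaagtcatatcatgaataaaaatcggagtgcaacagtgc
TGACGTC began 79 bases before the start of Vip and 91 bases before that of Adcyap1. Of 32851 RefSeq promoter windows of the same length (250 bases before to 50 after a start), 3.21% held TGACGTC on either strand and 20.8% held the shorter TGACG, which every TGACGTC contains. The complete TGACGTCA, present in 1.79% of windows, was in none of the members' windows. GGATTA, a sequence bound by the GTF2IRD1 protein in earlier work and present in 7.06% of windows, was in none of them either. Over the 250 bases before the start, Vipr1 had 72.8% G and C, Vipr2 65.2% and Adcyap1r1 65.6%, against 38.4% for Vip and 39.6% for Adcyap1.

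The values are counts per gene, and levels are given as CPM, counts scaled to library size with TMM factors. Gene counts totalled between 13627501 and 30544144 per library, and 3 counts, which is as many as an observed 0 could hide, stood for 0.0982 to 0.22 CPM. The share of ribosomal RNA was 17.5% in wild type replicate 3 and between 0.0473% and 6.2% in the others. Reads that fell on no gene made up 40.0%, 57.6% and 58.2% in wild type and 46.8%, 51.2% and 50.1% in the knockout-labelled libraries. Ambiguous reads made up 14.5% in wild type replicate 3, 8.63% in knockout replicate 6 and 1.94% to 2.69% in the others. The TMM factor of wild type replicate 3 was 0.811, the lowest. Markers of microglia, 15 genes, summed to between 29659 and 48917 CPM, against 218 to 925 CPM for 10 markers of GABAergic neurons. The 10 astrocyte markers summed to 3595 CPM in wild type replicate 1, 617 in replicate 3 and 287 in replicate 4, and to between 3514 and 6296 CPM in the knockout-labelled libraries. Gtf2ird1 had 35.9 ± 15.1 CPM among wild type libraries, against 46.4 ± 4.99 CPM in the knockout-labelled libraries (SD, n = 3 each), and a count over the whole gene does not check the labels.

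Vipr1 was lower in the knockout-labelled libraries, Adcyap1r1 was higher, and the other 3 genes had few counts, at or near the lower limit in wild type replicates 3 and 4. Of the 5 genes, 4 passed the expression filter, and Adcyap1 did not. Vip and Vipr2 passed it with counts of 1 to 5 in wild type replicates 3 and 4, so their entry rested on wild type replicate 1 and the knockout-labelled libraries. With edgeR's quasi-likelihood test, 0 of the 4 were called, where 0.00581% of all 17221 tested genes were (1 gene). Groups did not overlap for 2 of the 4, Vipr1 and Adcyap1r1, against 13.0% of all tested genes (6.68% lower and 6.34% higher). The list was chosen in view of this contrast, so nothing is read from these counts.

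**Figure D1:**
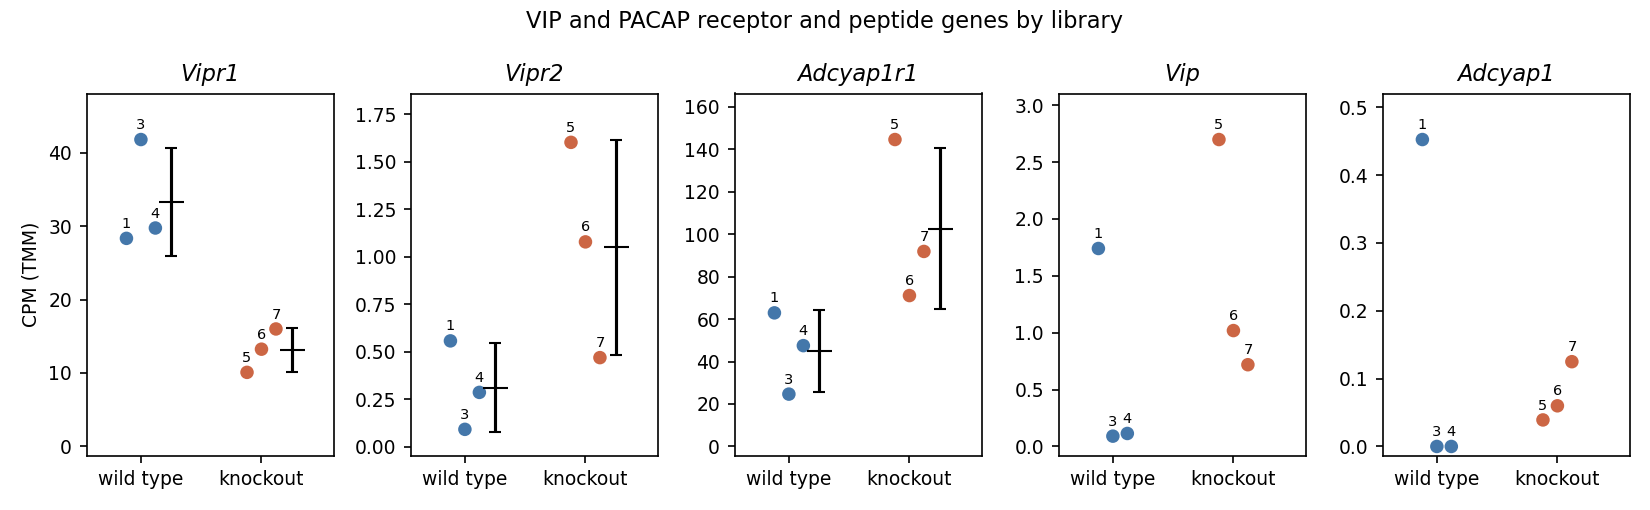
Level of each gene in each library, in CPM after TMM scaling on a separate linear axis per gene, with the replicate number above each point. Bars are the mean and SD of 3 libraries and are left out for Vip and Adcyap1, whose wild type libraries 3 and 4 had 0 to 2 counts. Vipr1 lies lower and Adcyap1r1 higher in all 3 knockout-labelled libraries than in any wild type library.

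Vipr1 (ENSMUSG00000032528.5, chromosome 9, 121642716 to 121672954, plus strand, GRCm38) encodes VPAC1. Reads counted on it numbered 814, 461 and 521 in replicates 1, 3 and 4 of wild type, against 258, 221 and 512 in replicates 5, 6 and 7 of the knockout label. In CPM it was 28.3, 41.8 and 29.7 in wild type and 10.1, 13.2 and 16.0 in the knockout-labelled libraries. The lowest wild type library thus lay above the highest knockout-labelled library, and wild type replicate 1 lay with the other wild type libraries. Group means came to 33.3 ± 7.39 and 13.1 ± 2.96 CPM (SD, n = 3 each), and the log2 fold change was -1.34 ± 0.23 (SE), or 2.53-fold higher in wild type. Without any 1 library it ran from -1.499 to -1.14.

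The level of Vipr1 was also set against cell type markers, since in bulk RNA fewer cells of a type and less RNA per cell cannot be told apart. The microglia marker sum was 48917, 46745 and 29659 CPM among wild type libraries, against 31314, 38805 and 35965 CPM in the knockout-labelled libraries, and the groups overlapped. All 15 markers were tested and none was called by edgeR. The log2 fold change was negative for 14 of them and positive for 1, Mrc1. Their median was -0.24, against -0.03 for all tested genes. Per 1000 of this sum, Vipr1 stood at 0.579, 0.894 and 1.003 in wild type and 0.322, 0.341 and 0.445 in the knockout-labelled libraries. Relative to Csf1r, the receptor by which microglia sense colony stimulating factor, it stood at 2.79, 3.85 and 3.95 per 1000 against 1.52, 1.62 and 1.92. On both scales the groups did not overlap. Vipr1 was chosen for its difference between the groups, and the part of microglia in its level was not tested. Of 10 T and NK cell markers, 8 had at most 3 counts in every library, with Cd8a and Nkg7 at 0 throughout, and the list summed to 2.51 to 8.77 CPM among wild type libraries, against 3.30 to 6.97 CPM in the knockout-labelled libraries. Most of the sum was Cd4, at 7.76, 2.81 and 2.45 CPM among wild type libraries, against 3.401, 3.30 and 6.62 CPM in the knockout-labelled libraries. Lck, another marker of this list, had 22, 10 and 0 counts in wild type and 11, 0 and 9 in the knockout-labelled libraries. Cd3e, Cd3d and Cd3g had at most 2 counts in any library. T cells are a known site of VPAC1, and the part of these markers in the level of Vipr1 was not tested.

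**Figure D2:**
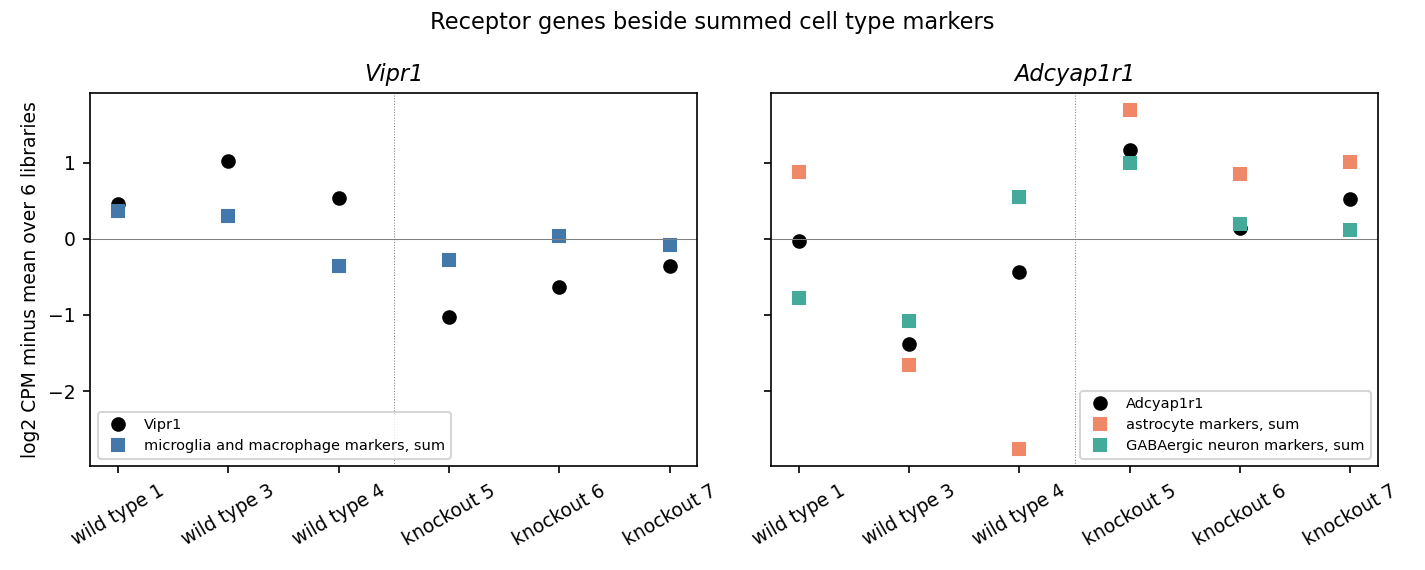
Each point is the log2 CPM of 1 library minus the mean over the 6 libraries, for Vipr1 beside the summed microglia markers and for Adcyap1r1 beside the summed astrocyte and GABAergic markers. Vipr1 separates the groups where the microglia sum overlaps, and astrocyte markers are lowest in wild type replicate 4, where Adcyap1r1 is not.

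The gene whose levels followed Vipr1 most closely was its direct neighbour. Likeness was measured as the root mean square difference of log2(CPM + 0.5), each gene centred on its mean over the 6 libraries, among 12285 other protein-coding genes with at least 10 counts in every library. Lyzl4, a lysozyme-like gene, was nearest at 0.21, followed by Unc5cl at 0.25 and Siglecg, a sialic acid-binding lectin of immune cells, at 0.26. The median over all genes compared was 0.72. The measure includes the gap between the groups, on which Vipr1 was chosen. Lyzl4, Unc5cl and Siglecg were each lower in every knockout-labelled library than in any wild type library, so their likeness in part restates that gap. Lyzl4 runs on the minus strand from 121642096 down to 121577843 on chromosome 9, so that its start lies 0.62 kb from that of Vipr1 and the genes point away from each other. The GC-rich Vipr1 promoter printed above lies in this gap.

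Lyzl4 had 9.33, 19.1 and 11.3 CPM among wild type libraries, against 3.17, 3.47 and 5.90 CPM in the knockout-labelled libraries, a log2 fold change of -1.65 ± 0.38 (SE). As with Vipr1, wild type replicate 3 was the highest library and knockout replicate 5 the lowest. Gm47097, a transcript of unclear status inside the span of Lyzl4 on the same strand, stood at 6.85, 13.8 and 16.4 CPM against 3.48, 3.77 and 5.09 CPM. Its reads could be shared with Lyzl4 where the counting allows it, so it is uncertain as a separate value. On the other side, Sec22c, a vesicle trafficking gene 7.09 kb beyond the end of Vipr1, overlapped between the groups, with a log2 fold change of -0.40 ± 0.38 (SE). Of the 25 other genes tested within 500 kb of Vipr1, 17 had negative and 8 positive values with a median of -0.17, and none was called by edgeR. Groups did not overlap for 5 lower genes, Ulk4, Gm34655, Lyzl4, Gm47097 and Gm47112, and for 2 higher genes, Ccdc13 and Fam198a, 7 of 25 in all, where 13.0% of all tested genes did not overlap (6.68% lower and 6.34% higher). This window was chosen after the values were seen, and no test of it was made.

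**Figure D3:**
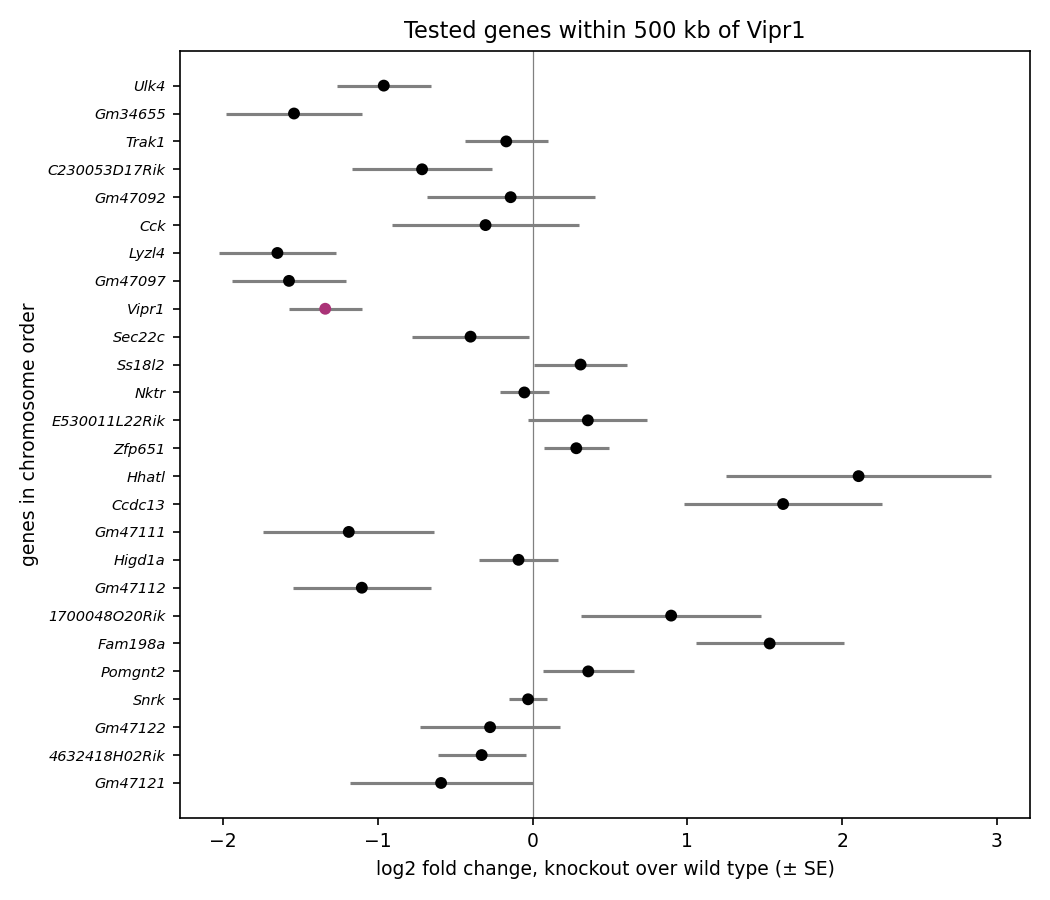
Log2 fold change (knockout-labelled libraries over wild type) with its SE for Vipr1, in colour, and the 25 other tested genes within 500 kb, in chromosome order. Lyzl4 and Gm47097 lie beside Vipr1 at -1.65 and -1.57, while Sec22c, Ss18l2 and Nktr on the other side lie between -0.40 and 0.31.

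Adcyap1r1 (ENSMUSG00000029778.12, chromosome 6, 55451978 to 55501451, plus strand) encodes PAC1. Reads counted on it numbered 1808, 272 and 832 in replicates 1, 3 and 4 of wild type, against 3697, 1186 and 2940 in replicates 5, 6 and 7 of the knockout label. In CPM it was 62.9, 24.6 and 47.5 in wild type and 145, 71.1 and 91.8 in the knockout-labelled libraries. The groups did not overlap, but wild type replicate 1 and knockout replicate 6 lay close together. Group means came to 45.01 ± 19.3 and 102 ± 37.9 CPM (SD, n = 3 each), and the log2 fold change was 1.18 ± 0.38 (SE), or 2.27-fold. Without knockout replicate 5 it was 0.85 and without wild type replicate 1 it was 1.501, the ends of its range when any 1 library was left out.

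Adcyap1r1 was likewise set against markers of the cells known to carry PAC1. Per 1000 of the summed astrocyte markers it stood at 17.5, 39.9 and 166 in wild type and 23.0, 20.2 and 23.3 in the knockout-labelled libraries, so the groups overlapped on this scale. Per 1000 of the summed GABAergic markers it stood at 233, 113 and 70.1 against 156, 134 and 183, which overlapped as well. All 10 astrocyte and all 10 GABAergic markers had positive log2 fold changes, with medians of 1.80 and 0.54, and none was called by edgeR. The GABAergic sum was 270, 218 and 677 CPM among wild type libraries, against 925, 530 and 502 CPM in the knockout-labelled libraries. The part of these cells in the level of Adcyap1r1 was not tested. Among its nearest genes by likeness were Sqle, the squalene epoxidase of sterol synthesis, at 0.06, and Phyhipl at 0.12, with a median of 0.82 over all genes compared. Here too the measure includes the gap between the groups. Sqle was higher in every knockout-labelled library than in any wild type library, so its likeness in part restates that gap, while Phyhipl overlapped.

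Vipr2 (ENSMUSG00000011171.11, chromosome 12, 116077726 to 116146261, plus strand) encodes VPAC2. It had 16, 1 and 5 counts in replicates 1, 3 and 4 of wild type, against 41, 18 and 15 counts in replicates 5, 6 and 7 of the knockout label. Scaled to library size this was 0.557, 0.0906 and 0.285 CPM among wild type libraries, against 1.603, 1.08 and 0.469 CPM in the knockout-labelled libraries. Knockout replicate 7 lay below wild type replicate 1, so the groups overlapped. Group means came to 0.311 ± 0.234 and 1.05 ± 0.568 CPM (SD, n = 3 each), with a log2 fold change of 1.58 ± 0.69 (SE) that became 2.32 without wild type replicate 1. An antisense gene inside its span, Gm20658, had a count of 0 in every library.

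Vip (ENSMUSG00000019772.5, chromosome 10, 5639218 to 5647617, plus strand) encodes the precursor of VIP. It had 50, 1 and 2 counts in replicates 1, 3 and 4 of wild type, against 69, 17 and 23 counts in replicates 5, 6 and 7 of the knockout label. In CPM this was 1.74, 0.0906 and 0.114 against 2.698, 1.02 and 0.718. Wild type replicate 1 lay above 2 of the 3 knockout-labelled libraries, while the other 2 wild type libraries were below the limit of 3 counts. The log2 fold change was 1.03 ± 1.003 (SE). It was 3.75 without wild type replicate 1, fitted against libraries of 1 and 2 counts, and 0.27 without knockout replicate 5. Of 10 other markers of VIP interneurons, 7 were tested, all with positive log2 fold changes (median 0.86), and none was called by edgeR. The sum of the 10 was 108, 75.1 and 194 CPM among wild type libraries, against 222, 169 and 141 CPM in the knockout-labelled libraries. Wild type replicate 4 was thus high for this sum and low for Vip. Adarb2 (106 CPM) and Prox1 (65.4 CPM) made up most of the sum in that library. Of the other tested markers, Calb2, Cnr1 and Cxcl14 were lower there than in wild type replicate 1, and Htr3a and Npas1 were higher.

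Adcyap1 (ENSMUSG00000024256.6, chromosome 17, 93199017 to 93206537, plus strand) encodes the precursor of PACAP. It had 13, 0 and 0 counts in wild type and 1, 1 and 4 counts in the knockout-labelled libraries. Wild type replicate 1 and knockout replicate 7 were the libraries above 3 counts, and no fold change is given. Transcripts of the receptor that prefers PACAP were thus present in every library. Those of its ligand were at or close to the limit in all but wild type replicate 1.

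Compared per kilobase of exon, Adcyap1r1 and Vipr1 stood far above the other members. In wild type they were at 6.82 ± 2.92 and 5.74 ± 1.27 CPM per kilobase, a difference smaller than the spread between libraries, and wild type replicate 3 had more Vipr1 (7.20) than Adcyap1r1 (3.73). In the knockout-labelled libraries they were at 15.5 ± 5.74 and 2.26 ± 0.51 CPM per kilobase. Vip and Vipr2 followed at 0.191 ± 0.278 and 0.0697 ± 0.0525 CPM per kilobase in wild type and 0.434 ± 0.314 and 0.235 ± 0.127 in the knockout-labelled libraries, within each other's spread (SD, n = 3 each). Adcyap1 came last, at 0 to 0.12 CPM per kilobase. By mean level per kilobase, Adcyap1r1 ranked 3846th and Vipr1 7938th of 21865 protein-coding genes.

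The balance between the receptor transcripts did not overlap between the groups, while their sum did. Vipr1 lay lower and Adcyap1r1 higher in every knockout-labelled library than in any wild type library, and Vipr1 was chosen on this contrast. Their ratio therefore had to separate the groups, and nothing further is read from it or from the shares. The ratio of Adcyap1r1 to Vipr1 per kilobase, which does not depend on scaling between libraries, was 1.95, 0.518 and 1.40 in wild type and 12.6, 4.72 and 5.05 in the knockout-labelled libraries. Vipr1 made up 33.6%, 65.7% and 41.4% of the 3 receptor genes per kilobase in wild type and 7.25%, 17.2% and 16.4% in the knockout-labelled libraries. Vipr2 made up at most 1.82% in any library. The sum of the 3 genes was 14.5, 10.96 and 12.4 CPM per kilobase in wild type and 24.0, 13.3 and 16.8 in the knockout-labelled libraries, and knockout replicate 6 lay below wild type replicate 1.

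**Figure D4:**
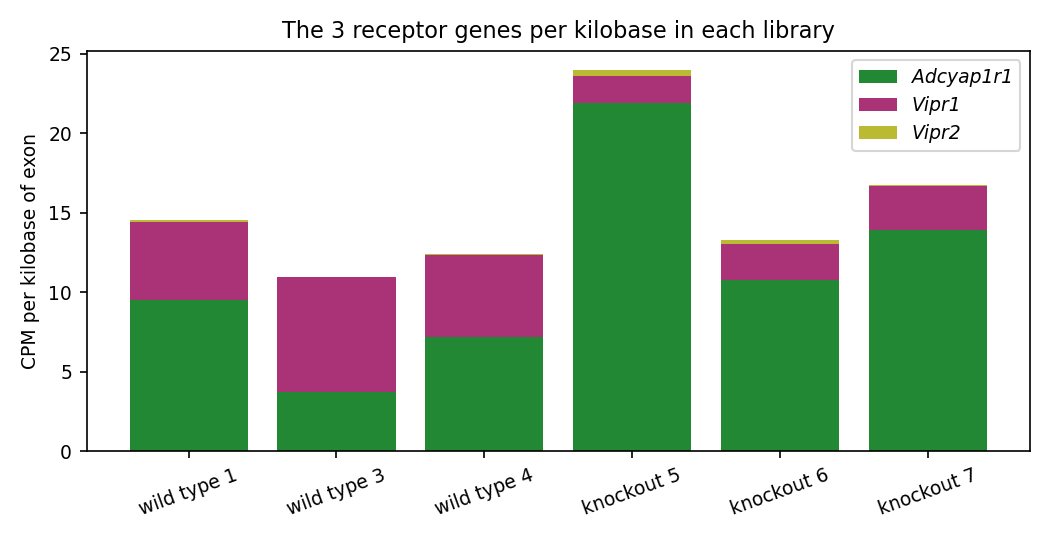
Stacked levels of Adcyap1r1, Vipr1 and Vipr2 in each library, in CPM per kilobase of exon. Adcyap1r1 takes 81.0% to 91.3% of the bar in the knockout-labelled libraries and 34.1% to 65.6% in wild type.

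The pathway around the receptors was present, and no gene of it passed the test. There were 102 further genes in 7 lists, from related receptors and peptides through G proteins to genes induced by cyclic AMP. Of these, 76 were tested and 0 were called in either direction by edgeR or DESeq2, where edgeR called 0.00581% of all tested genes and DESeq2 0.124%. At an unadjusted p under 0.05 by edgeR there were 9 of the 76, against 1249 of 17221 genes. The log2 fold change was positive for 56 and negative for 20, with a median of 0.33 against -0.03 for all tested genes. Markers of several other cell types lay mostly on the same side: the log2 fold change was positive for 10 of 10 astrocyte markers (median 1.80), 10 of 10 oligodendrocyte lineage markers (median 1.22) and 8 of 9 tested endothelial and mural markers (median 1.04). Of 9 tested markers of glutamatergic neurons, 6 were positive and 3 negative (median 0.0952). None of these markers was called by edgeR, and their part in the pathway values was not tested. Groups did not overlap for 9 of the 76 pathway genes, against 13.0% of all tested genes: Gnal, Plcb1, Pde7b, Rapgef3, Nr4a2, Sik1 and Ppargc1a were higher, and Plcb3 and Adcy7 were lower. With all 6 libraries, every tested gene named from these lists had an edgeR adjusted p of at least 0.637.

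Among other class B receptors, 3 of 12 genes were tested. Calcrl, the calcitonin receptor-like receptor, had 44.1 ± 17.7 CPM among wild type libraries, against 45.9 ± 14.0 CPM in the knockout-labelled libraries (SD, n = 3 each). Pth1r, the parathyroid hormone receptor, and Sctr, the secretin receptor, had log2 fold changes of 1.32 ± 0.59 and 1.09 ± 0.53 (SE) at levels between 0.181 and 1.56 CPM. Ghrhr and Calcr had a count of 0 in every library. Of 16 related peptide genes 4 were tested, 2 positive and 2 negative: the enkephalin gene Penk at 1.59 ± 1.02, somatostatin (Sst) at 0.70 ± 0.74, adrenomedullin (Adm) at -0.17 ± 1.05 and Cck at -0.30 ± 0.61 (log2 fold change ± SE). Penk had 36, 0 and 1 counts in wild type and 33, 17 and 73 in the knockout-labelled libraries. Sst had 19, 3 and 1 against 13, 6 and 27, so both rest on few reads. Cck lies 147 kb from Vipr1, with other genes nearer to it. All 10 tested genes for receptor accessory proteins and peptide processing were positive, with a median log2 fold change of 0.48. Cpe, the carboxypeptidase that trims neuropeptide precursors, had 405, 62.6 and 57.1 CPM among wild type libraries, against 596, 360 and 394 CPM in the knockout-labelled libraries. Pam, which amidates the ends of peptides such as VIP and PACAP, had a log2 fold change of 0.67 ± 0.40 (SE), Scg5, a chaperone of prohormone convertase, 0.61 ± 0.34, and Ece1, a peptidase, 0.34 ± 0.18. Ramp2, an accessory protein known to pair with VPAC1, had 2.85 ± 0.83 CPM among wild type libraries, against 3.65 ± 0.516 CPM in the knockout-labelled libraries (SD, n = 3 each).

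Of the 17 genes for G proteins, phospholipases and adenylyl cyclases, 12 were positive and 5 negative. Plcb1 and Gnal, which encode a phospholipase C and the olfactory type of the stimulatory G protein, had log2 fold changes of 0.94 ± 0.34 and 0.88 ± 0.32 (SE). Plcb2 and Adcy7, a phospholipase C and an adenylyl cyclase of blood and immune cells, had -0.56 ± 0.21 and -0.46 ± 0.17 (SE). Adcy7 was abundant at 378, 436 and 482 CPM among wild type libraries, against 268, 307 and 366 CPM in the knockout-labelled libraries. Gnas, the stimulatory G protein itself, had 243 ± 39.4 and 301 ± 11.7 CPM (SD, n = 3 each). Of 14 tested phosphodiesterases, which break down cyclic nucleotides, 9 were positive, with Pde3a at 1.10, Pde7b at 1.10 and Pde8b at 0.59 on the log2 scale, and 5 negative, with Pde1b at -0.36.

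Past the cyclic AMP step, the 15 genes of protein kinase A, EPAC and CREB had a median log2 fold change of -0.03, with 7 positive and 8 negative. Rapgef3, which encodes the cyclic AMP sensor EPAC1, had 22.3, 11.96 and 24.9 CPM among wild type libraries, against 80.8, 33.3 and 52.0 CPM in the knockout-labelled libraries, a log2 fold change of 1.49 ± 0.38 (SE). Prkar2b and Prkar1b, regulatory subunits of protein kinase A, had 0.79 ± 0.41 and 0.33 ± 0.19, and Crtc2, a coactivator of CREB, -0.26 ± 0.20 (SE). Creb1 had 189 ± 19.9 and 174 ± 15.3 CPM (SD, n = 3 each). All 13 tested genes induced by cyclic AMP were positive, with a median of 0.65. Over the genes that passed the filter in each fit, the median became 1.33 without wild type replicate 1 and 0.26 without wild type replicate 4. Sik1, a kinase that restrains CREB coactivators, had 17.7, 13.0 and 17.1 CPM among wild type libraries, against 25.9, 24.4 and 23.3 CPM in the knockout-labelled libraries, a log2 fold change of 0.62 ± 0.17 (SE). The coactivator Ppargc1a, the nuclear receptor Nr4a2 and the immediate early gene Egr1 had 1.79 ± 0.68, 1.17 ± 0.50 and 0.81 ± 0.36 (SE).

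The inducible genes also differed among the wild type libraries. Fos had 625, 167 and 72.4 CPM in replicates 1, 3 and 4 of wild type, against 540, 518 and 489 CPM in the knockout-labelled libraries, so replicate 1 was the highest of all 6. Without wild type replicate 1, 10 of the pathway genes passed as higher by edgeR: Penk, Cpe, Adcy1, Adcy2, Rapgef4, Fos, Fosb, Nr4a1, Nr4a2 and Ppargc1a. In that setting 1.85% of all tested genes were called. Penk was fitted there against wild type libraries of 0 and 1 counts, so its entry and its call rested on the knockout-labelled libraries, and nothing is read from it. The wild type group then held replicates 3 and 4, the libraries with the lowest astrocyte marker sums, and the part of cell composition in these calls was not tested.

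**Figure D5:**
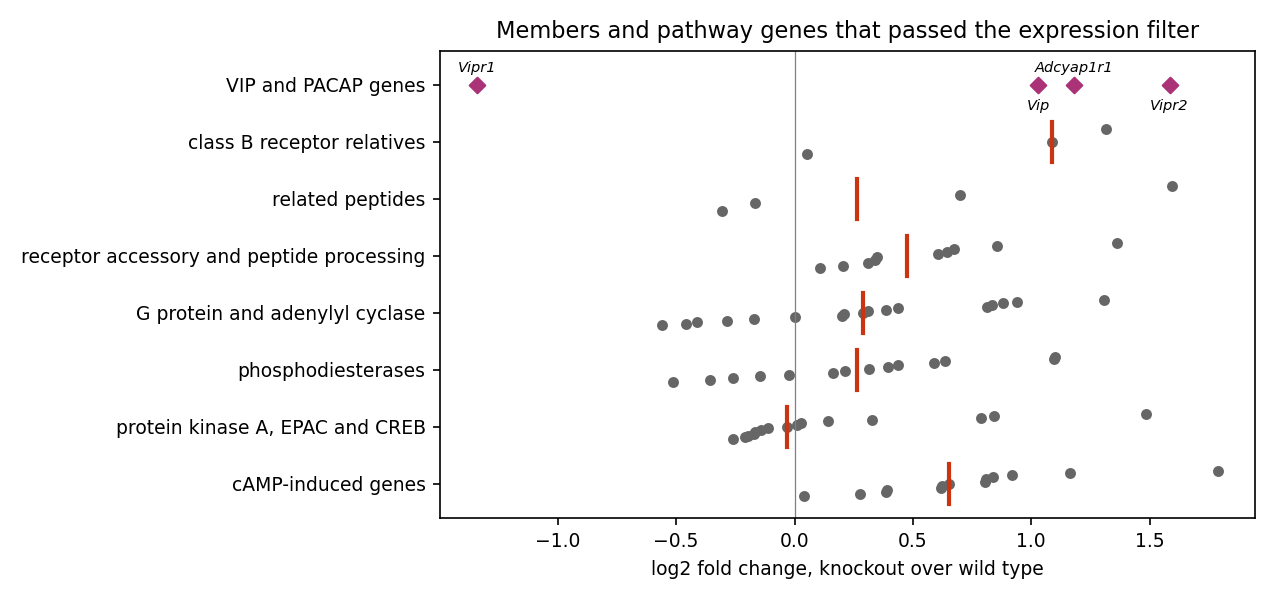
Log2 fold change (knockout-labelled libraries over wild type) of the 4 tested VIP and PACAP genes (diamonds) and of the tested genes of each pathway list (points), with the median of each list as a vertical bar. Vipr1, at -1.34, lies below every pathway gene shown, but it was chosen on its value in this contrast, so nothing is read from its place. The medians lie between -0.03 and 1.09.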

How the data were processed

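Gene expression was measured in 6 RNA sequencing libraries, 3 per genotype, from total RNA with a stranded total RNA kit, per the labels. The deposited files hold raw, unpooled read counts for each gene, and the submitters' processing notes name Trim Galore 0.60, STAR 2.7, HTSeq 1.31 and mm10. Annotation release, strand setting and multimapping: not given in the sources used here. The 5 summary lines of each file were left out.

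Names, coordinates and exon lengths came from GENCODE M21 (GRCm38), which matched 53274 of 53379 identifiers. Counts were tested with edgeR 4.0.16 (quasi-likelihood F-test, TMM, default filter, robust shrinkage, Benjamini-Hochberg, threshold 0.05, two-sided) in R 4.3.3, after a check on simulated data. SEs come from the F statistic. Levels per kilobase use the union of exons. Alternatives used DESeq2 1.42.0, limma 3.58.1, other scalings and filters, and each library left out.

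The members and gene lists were chosen with earlier results of these data known. Genes named were the members, up to 4 genes with the smallest p per list, Ramp2, Gtf2ird1 and the 3 genes most like each member with at least 10 counts in every library; other genes were named after their values were seen. One gene that the rule names is not reported here.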

Additional observations from a re-analysis of the deposited data

How the results depend on the processing

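Vipr1, Vipr2, Adcyap1r1 and Vip kept their direction under each alternative that gave a value. Vipr2 did not pass the filter without knockout replicate 5, and Adcyap1 had a value only without the filter. Leaving out 1 library at a time gave log2 fold changes from -1.499 to -1.14 for Vipr1, 0.85 to 1.501 for Adcyap1r1, 1.26 to 2.32 for Vipr2 and 0.27 to 3.75 for Vip. Over all genes it gave 1 to 306 higher and 0 to 15 lower calls by edgeR, 0 to 1 among the members and 0 to 10 among the pathway genes, with the highest counts without wild type replicate 1. DESeq2 called 15 higher and 6 lower genes. In both settings 1 member, Vipr1, was among the calls, and nothing is read from that, because the list was chosen on its value in this contrast. Without the filter edgeR called 4 higher and 1 lower, and with protein-coding genes alone 0 higher, a setting that leaves out the pseudogene called in the full table. List medians moved with the libraries and with the genes that passed the filter. Without 1 library, that of genes induced by cyclic AMP was 0.26 to 1.33, phosphodiesterases 0.0653 to 0.311, G proteins and adenylyl cyclases 0.161 to 0.368, receptor accessory and peptide processing genes 0.333 to 0.634, and protein kinase A, EPAC and CREB -0.0614 to 0.0455. That of class B receptor relatives was 0.14 without the filter and -0.0156 to 1.115 without 1 library. That of related peptides was 1.08 with limma-voom, 0.87 without the filter and 0.21 to 0.93 without 1 library. The filter was run anew with each library left out, and 17320 genes were tested without wild type replicate 1, against 17221 with all libraries. Each median covers the genes tested in that fit, so the genes of a list could change there, as they do without the filter. The cause of these moves was otherwise not tested. No paired analysis was possible because the groups share no replicate number. Depth limits Vip, Vipr2 and Adcyap1, with counts of 0 to 5 in wild type replicates 3 and 4. SDs and fold changes of these genes rest on few reads.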

Other observations

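The subunit genes of another class B receptor, that for calcitonin gene-related peptide (CGRP), were present in libraries where the CGRP genes had no more than 2 counts. Calcrl and Ramp1 encode these subunits, and Calcrl also forms the adrenomedullin receptor with Ramp2; the adrenomedullin gene Adm had 0 to 20 counts and Ramp2 28 to 125 counts. Calcrl had between 27.5 and 62.7 CPM and Ramp1 between 10.4 and 39.4 CPM over the 6 libraries. Calca, a gene for CGRP, had 0, 0 and 0 counts in wild type and 2, 0 and 1 counts in the knockout-labelled libraries, and Calcb, the other, had 0 counts in every library. The log2 fold changes of Calcrl and Ramp1 were 0.05 ± 0.34 and 0.11 ± 0.43 (SE).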
